A study of Homo sapiens with 3 samples.

Results

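The clustered replication-dependent histone genes were followed in HCT-116 cells, a human colorectal cancer cell line, under chemical inhibition and genetic loss of stearoyl-CoA desaturase-1 (SCD1), the enzyme that makes monounsaturated fatty acids from saturated ones. A probe set, the group of array probes that yields 1 signal, was taken as a member where its annotation named exactly 1 gene and that gene's symbol began with H2AC, H2BC, H3C or H4C plus a number or was one of H1-1 to H1-5. This gave 44 genes read by 49 probe sets, of 19775 genes read by 41091 probe sets of 1 gene. There were 3 arrays, 1 per condition. They held SCD1-WT HCT-116 cells treated with the SCD1 inhibitor T-3764518 at 100 nM for 24 h, SCD1-KO HCT-116 cells made with CRISPR-Cas9 and given DMSO, and SCD1-WT HCT-116 cells treated with DMSO, the vehicle, for 24 h. The vehicle of the SCD1-KO cells is taken from the study's text, as their labels name none, and the number of knockout clones behind that array is not stated in the sources consulted. With no replicate in any condition, no difference could be tested, and each ratio compares those arrays and not the conditions in general.

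Core histones H2A, H2B, H3 and H4 form the protein spool of the nucleosome, and the linker histones of the H1 family bind the DNA where it enters and leaves. Most of their genes lie in a large cluster on chromosome 6 and smaller clusters on chromosome 1, and are transcribed mainly in S phase, when new chromatin needs them. Their messenger RNAs mostly end in a stem-loop bound by SLBP and not in a poly(A) tail. The array protocol starts from oligo(dT)-primed cDNA, so it reads mainly the polyadenylated forms that some of these genes also make. The signals below are therefore not a measure of total histone mRNA.

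The promoters of 5 genes described below are shown first, for the motifs by which the families differ. Each line holds the 180 bases before the transcription start on the gene's own strand in RefSeq's GRCh38.p14 annotation, with capitals marking every match, on either strand, to the octamer ATTTGCAT, the CCAAT box, the TATA box TATAAA, the H1 element AAACACA or the H4 element GGTCC. No searched motif contains another. The regions are chr6:27146859-27147038 on the minus strand for H2BC12, chr6:26157941-26158120 on the plus strand for H2BC5, chr6:26123992-26124171 on the plus strand for H2AC6, chr6:26056471-26056650 on the minus strand for H1-2 and chr6:26204430-26204609 on the plus strand for H4C5.
H2BC12: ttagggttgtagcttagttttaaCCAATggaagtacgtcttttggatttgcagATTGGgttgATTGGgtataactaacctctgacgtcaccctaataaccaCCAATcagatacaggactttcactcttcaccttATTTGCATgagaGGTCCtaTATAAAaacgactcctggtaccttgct
H2BC5: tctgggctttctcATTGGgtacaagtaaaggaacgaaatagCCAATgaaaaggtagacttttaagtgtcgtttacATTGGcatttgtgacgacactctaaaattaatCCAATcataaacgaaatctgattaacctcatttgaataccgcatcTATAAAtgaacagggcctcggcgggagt
H2AC6: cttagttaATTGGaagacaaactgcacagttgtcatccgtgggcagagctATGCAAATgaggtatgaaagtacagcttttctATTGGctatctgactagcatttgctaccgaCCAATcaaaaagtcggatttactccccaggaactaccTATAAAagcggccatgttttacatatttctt
H1-2: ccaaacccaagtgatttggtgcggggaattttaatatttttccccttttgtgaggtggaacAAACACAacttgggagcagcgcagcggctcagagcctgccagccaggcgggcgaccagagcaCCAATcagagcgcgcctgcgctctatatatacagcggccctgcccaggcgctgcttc
H4C5: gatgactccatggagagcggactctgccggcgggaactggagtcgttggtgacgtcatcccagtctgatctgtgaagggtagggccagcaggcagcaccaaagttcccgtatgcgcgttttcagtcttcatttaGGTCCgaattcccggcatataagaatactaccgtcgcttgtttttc

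Of the 44 genes, 39 had a promoter entry. Within the 250 bases before the start, the octamer, the letters that the POU factor OCT1 binds, was found in 16 of 39 histone promoters, against 1.66% of all 27305 promoters. It lay in 10 of 13 H2B and 6 of 8 H2A promoters and in none of the 5 H1, 6 H3 or 7 H4 promoters. The H1 element stood in 5 of 5 H1 promoters and in no other histone promoter, against 4.95% of all promoters. GGTCC was found in 6 of 7 H4 promoters, but also in 40.4% of all promoters. CCAAT occurred in 34 of 39 and TATAAA in 27 of 39 histone promoters, against 33% and 11.1% of all promoters. The octamer was present in 7 of 16 promoters of genes with a signal at or above the array median and in 9 of 23 of the others.

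The arrays reported MAS5 signals, a linear intensity per probe set that was scaled so that each array had the same trimmed mean, 500.1. A gene was called brighter here when the average of its 3 log2 signals reached the median that all probe sets have, equal to a signal of 56.6. By this limit 17 of 44 histone genes were brighter, against 55.8% of all genes. H1-3, with a mean signal of 65.4, lay just inside the limit and H4C4, with 53.0, just outside. The brighter genes were 7 of 14 H2B, 4 of 9 H2A, 3 of 5 H1, 2 of 9 H4 and 1 of 7 H3 genes. They included both histone genes of chromosome 1 (H2BC21 and H2AC25), the only one of chromosome 21 (H2BC12L, an H2B gene outside the clusters that the symbol rule took in) and 14 of 41 genes of chromosome 6. Of the brighter genes, 8 were read only by probe sets whose name ends in _s_at or _x_at, which can also match related transcripts, so these signals may mix several genes of a family.

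Probe sets of the same gene gave the only measure of error. Their log2 ratios of T-3764518 to DMSO varied around the gene's mean with an SD of 0.21 in the brightest of 5 equal classes of probe sets (signals from 672), 0.37 in the next (from 118), 0.89 in the next (from 32.2), 1.71 in the next (from 10.9) and 2.15 in the dimmest. For SCD1-KO against DMSO these SDs were 0.21, 0.38, 0.95, 1.75 and 2.09 in the same order. This spread does not include differences between cultures or shifts that all probe sets of an array share. Ratios are set beside 1 SD below as a yardstick only, and a ratio beyond it has not passed a test.

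Array-wide measures bear on ratios this small. Median signals were 56.7 for T-3764518, 62.4 for SCD1-KO and 68.8 for DMSO, so the median log2 ratio over all genes was -0.13 with the inhibitor and -0.09 in SCD1-KO cells, and scaling the arrays to 1 median moved these to 0.15 and 0.05. The ACTB 3′ to 5′ signal ratio, a measure of RNA quality, was 1.36, 1.54 and 1.30 in the T-3764518, SCD1-KO and DMSO arrays. Bacterial RNAs added before labelling had a median log2 ratio to DMSO of 0.00 with the inhibitor and -0.26 in SCD1-KO cells over 24 probe sets, and those added before hybridisation -0.03 and -0.05 over 18. The part of these differences in the histone ratios was not tested. Of 5 brighter epithelial markers, the log2 ratios of SCD1-KO to DMSO were 0.36 for KRT8, 0.26 for KRT18, 0.69 for CDX2, -1.30 for EPCAM and -1.48 for CDH1 (median 0.26), and with T-3764518 all 5 lay between -0.02 and 0.52. The SCD transcript itself was not lower in SCD1-KO cells: its 4 probe sets gave log2 ratios to DMSO of 0.72 to 3.10 with the inhibitor and 0.02 to 1.36 in SCD1-KO cells. A CRISPR edit of a coding sequence need not remove the transcript, so this is no check of the knockout label, and where the probes lie relative to the edit was not examined.

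Across all 44 histone genes the 2 conditions gave no common shift. The median log2 ratio was 0.10 for T-3764518 over DMSO and -0.17 for SCD1-KO over DMSO, and the second became 0.01 after quantile normalization or lowess correction. With T-3764518, 9 of 44 genes were at least 2-fold higher, against 8.5% of all genes, and 9 were at least 2-fold lower, against 14.5%. In SCD1-KO cells 7 were at least 2-fold higher, against 9.02% of all genes, and 5 at least 2-fold lower, against 15.1%. Most of these calls came from dim genes: among the 17 brighter genes 3 were at least 2-fold higher with T-3764518 (background 2.55% of brighter genes) and 0 lower (3.69%), while in SCD1-KO cells 1 was higher (3.52%) and 0 lower (4.11%). H1-3, one of the 3 and the only one in SCD1-KO cells, had a DMSO signal below 56.6, and its calls end once that signal is raised to 56.6, as does that of H2AC25, so that H2BC15 alone remains with T-3764518.

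**Figure D1:**
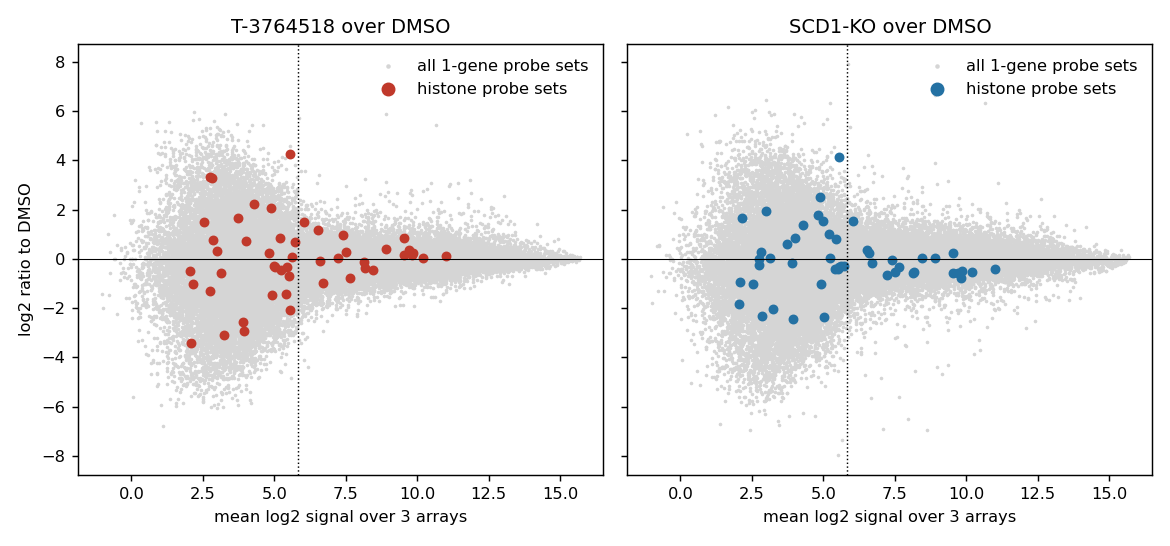
Log2 ratio to DMSO (vertical axes) against mean log2 MAS5 signal over the arrays (horizontal axes) for T-3764518 (left, red) and SCD1-KO (right, blue). Grey points are all probe sets of 1 gene, coloured points are the 49 histone probe sets, and the dotted line is the median of all probe sets. Right of that line, 17 of 19 histone probe sets lie within 2-fold of DMSO with T-3764518 and 18 of 19 in SCD1-KO cells. Counted by gene, 2.55% of all brighter genes were at least 2-fold higher and 3.69% lower with T-3764518. In SCD1-KO cells these shares were 3.52% and 4.11%.

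Among the brighter histone genes most ratios were small, and no 1 pattern of signs held across the 2 conditions. T-3764518 was above and SCD1-KO below DMSO in 6 of 17 (13.9% of all brighter genes). The reverse was seen in 2 (2398 of 11041 brighter genes). Both were above DMSO in 5 (2995 of 11041) and both below in 4 (4112 of 11041). The 17 genes had a median log2 ratio of 0.17 with T-3764518, against -0.09 for all brighter genes. In SCD1-KO cells it was -0.16, against -0.01 for all brighter genes. T-3764518-treated cells had the higher signal in 11 of 17 against DMSO (41% of all brighter genes), and SCD1-KO cells the lower signal in 10 of 17 (51.1%). Both ratios share the DMSO array, so the T-3764518 and SCD1-KO arrays were also compared directly. That comparison was added after the data were seen, so its counts, here and below, are description only. T-3764518-treated cells had the higher signal in 12 of 17 genes, against 44.8% of all brighter genes, with a median log2 ratio to SCD1-KO of 0.54, against -0.06 for all brighter genes. That count was 13 of 17 under each of quantile normalization, scaling to 1 median and lowess correction, but 5 of 9 without the _s_at and _x_at probe sets.

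**Figure D2:**
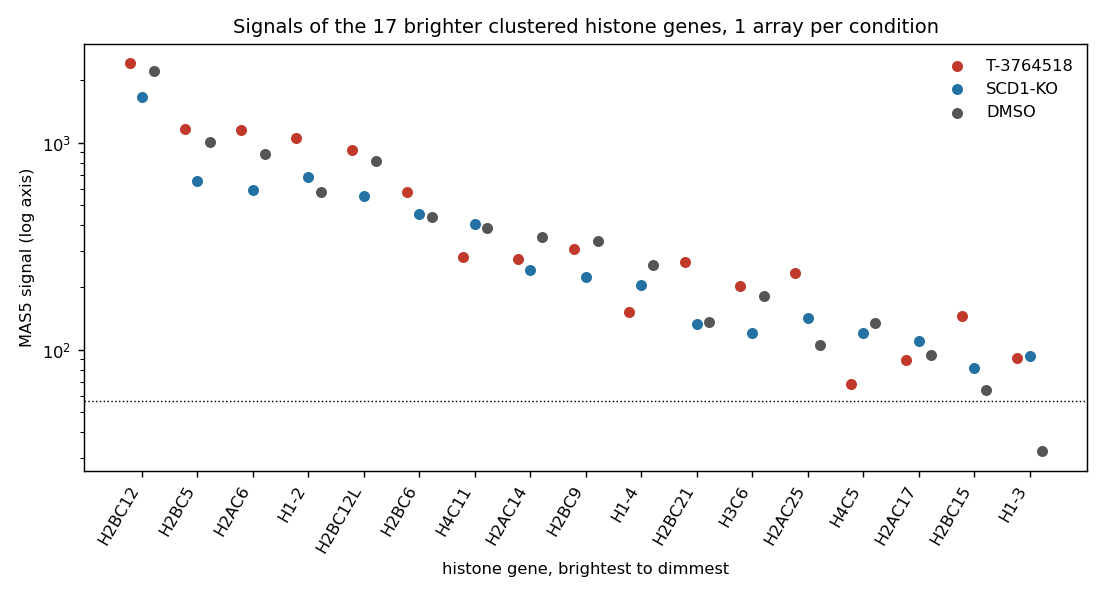
MAS5 signal (vertical log axis) of the 17 brighter clustered histone genes in cells treated with T-3764518 (red), SCD1-KO cells (blue) and cells treated with DMSO (grey), 1 array each, with no error bars. Genes run from the highest to the lowest mean signal, the dotted line is the median of all probe sets, 56.6, and only the DMSO value of H1-3 lies below it.

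The H2B genes are the largest group among the brighter ones. H2B pairs with H2A in the nucleosome. All 7 brighter H2B genes had a higher signal in T-3764518-treated than in SCD1-KO cells, against 44.8% of all brighter genes. Their median log2 ratio was 0.74. Of these, H2BC5, H2BC12L, H2BC21, H2BC6 and H2BC9 were read only by _s_at or _x_at probe sets, so their signals may mix H2B genes. H2BC12 had signals of 2408 in T-3764518-treated, 1659 in SCD1-KO and 2208 in DMSO-treated cells, which is a log2 ratio to DMSO of 0.12 with the inhibitor and -0.41 in SCD1-KO cells. H2BC5 was read by 2 probe sets, with signals of 1148 and 1170 in T-3764518-treated, 697 and 612 in SCD1-KO and 966 and 1043 in DMSO-treated cells. Both probe sets of H2BC5 placed T-3764518 above DMSO and SCD1-KO below it, and the gene's log2 ratios were 0.21 and -0.62. H2BC12L had signals of 918 in T-3764518-treated, 549 in SCD1-KO and 817 in DMSO-treated cells (log2 ratios 0.17 and -0.57). In these 3 genes the SCD1-KO difference from DMSO was beyond the 0.21 SD between bright probe sets of a gene, and the T-3764518 difference was not. After scaling to 1 median the T-3764518 ratios of H2BC12, H2BC5 and H2BC12L were 0.40, 0.49 and 0.45, beyond that SD, and H2BC5 passed it also with quantile normalization and lowess correction (0.23 in each).

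The H2B genes H2BC21, H2BC15 and H2BC6 were above DMSO with the inhibitor, and by less or not at all in SCD1-KO cells. H2BC21, a gene of chromosome 1, had signals of 267 in T-3764518-treated, 133 in SCD1-KO and 137 in DMSO-treated cells, a log2 ratio to DMSO of 0.97 with the inhibitor and -0.04 in SCD1-KO cells, the second being 0.10 after scaling to 1 median. Its T-3764518 signal was 2.01-fold that in SCD1-KO cells, the only brighter histone gene past 2-fold in that direction as deposited, against 3.29% of all brighter genes; H2AC6 also passed it under each of the 3 other scalings. H2BC15, close to the signal limit, had 146 in T-3764518-treated, 81.9 in SCD1-KO and 64.2 in DMSO-treated cells (log2 ratios 1.19 and 0.35), and probe sets of its brightness differed with an SD of 0.89. H2BC6 had 576, 450 and 438 in the T-3764518, SCD1-KO and DMSO arrays (log2 ratios to DMSO 0.40 and 0.04). H2BC9 was the only brighter H2B gene below DMSO in both, with 305, 224 and 336 in the same order of arrays and log2 ratios of -0.14 and -0.59, although scaling to 1 median turned the first to 0.14.

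Of the 4 brighter H2A genes, H2AC6 had the order of H2BC12, H2BC5 and H2BC12L, with T-3764518 highest and SCD1-KO lowest. Its signal was 1147 in T-3764518-treated, 589 in SCD1-KO and 881 in DMSO-treated cells, with log2 ratios to DMSO of 0.38 and -0.58, both beyond the SD between probe sets of that brightness. The T-3764518 signal of H2AC6 was 1.95-fold that in SCD1-KO cells. H2AC25, the H2A gene of the small chromosome 1 cluster, was read by 2 probe sets that disagreed. Its bright probe set gave 1360 in T-3764518-treated, 912 in SCD1-KO and 1316 in DMSO-treated cells, with log2 ratios of 0.05 and -0.53. The other, an _x_at probe set, stayed below 56.6 on all arrays with 40.4, 22.4 and 8.5 in the same order and log2 ratios of 2.25 and 1.40. The gene's median over both, 1.15 with T-3764518, made it one of the 3 brighter genes past 2-fold, a call that rests on the dim probe set alone. H2AC14 was below DMSO in both conditions, with 274, 243 and 349 in the T-3764518, SCD1-KO and DMSO arrays (log2 ratios -0.35 and -0.52). The first was within the 0.37 SD between probe sets of its brightness. H2AC17 had 89.7, 110 and 94.7 in the same order, differences within the spread of probe sets that dim.

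Taking H2A and H2B together, 10 of 11 brighter genes had a higher signal in T-3764518-treated than in SCD1-KO cells, against 44.8% of all brighter genes. H2AC17 was the exception, and the median log2 ratio was 0.71. This pooling was not among the planned results, so the count is description only and cannot be weighed against the share. The count was 10 of 11 under each of the 3 other scalings as well, and 3 of 4 without the _s_at and _x_at probe sets. Of the brighter genes left out here, H1-2 and H3C6 were also higher with T-3764518. H1-4, H4C11 and H4C5 were lower, as was H1-3 by a log2 ratio of -0.03.

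The linker histones H1-2, H1-3 and H1-4 had no common direction. H1-2 had signals of 1055 in T-3764518-treated, 685 in SCD1-KO and 580 in DMSO-treated cells. It was higher than in DMSO in both conditions, by log2 0.86 with the inhibitor and 0.24 in SCD1-KO cells. H1-4 had 152, 205 and 257 in the T-3764518, SCD1-KO and DMSO arrays and was lower in both, with log2 ratios of -0.76 and -0.33. The second was within the 0.38 SD between probe sets of its brightness. H1-3 had 91.7 in T-3764518-treated, 93.7 in SCD1-KO and 32.5 in DMSO-treated cells. As the DMSO value was below the median signal, its difference is given as a bound against 56.6, at least 1.62-fold higher for T-3764518 and, for SCD1-KO cells, at least 1.66-fold higher. These bounds leave out the error of the other signals. Probe sets of that brightness differed with log2 SDs of 0.89 and 0.95, more than the bounds of log2 0.70 and 0.73.

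**Figure D3:**
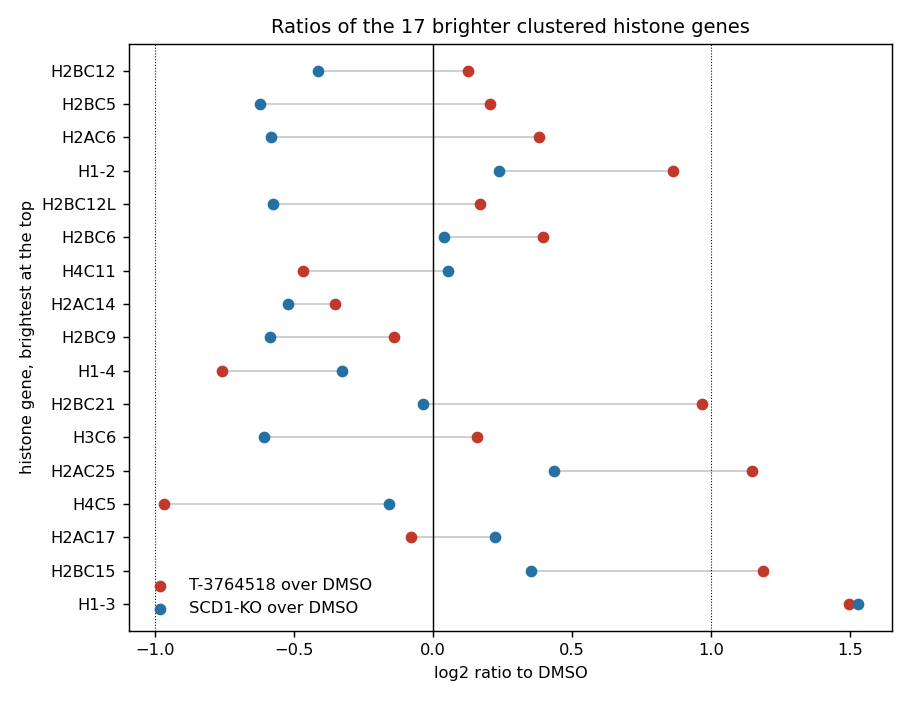
Log2 ratio to DMSO (horizontal axis) of each of the 17 brighter clustered histone genes with T-3764518 (red) and in SCD1-KO cells (blue), from the highest mean signal at the top, 1 array per condition; dotted lines mark 2-fold. Red lies right of blue in 12 of 17 genes, while H4C11, H4C5, H1-4 and H2AC17 lie the other way and the points of H1-3 nearly coincide.

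H3 and H4, which form the central tetramer of the nucleosome, were represented by 3 brighter genes. H3C6 was read by 2 probe sets, with signals of 176 and 236 in T-3764518-treated, 108 and 134 in SCD1-KO and 171 and 195 in DMSO-treated cells. Both placed T-3764518 above DMSO and SCD1-KO below it, and the gene's log2 ratios were 0.16 and -0.61, the first within the 0.37 SD between probe sets of its brightness. The 2 brighter H4 genes were lower in T-3764518-treated than in SCD1-KO cells, as were 6094 of all 11041 brighter genes. Of all 9 H4 genes, dim ones included, 6 were lower and 3 higher. H4C11 had 280 in T-3764518-treated, 403 in SCD1-KO and 387 in DMSO-treated cells (log2 ratios -0.47 and 0.06). H4C5 had 68.8, 121 and 135 in the T-3764518, SCD1-KO and DMSO arrays, with log2 ratios to DMSO of -0.97 and -0.16. The T-3764518 signal was thus the lower one against SCD1-KO in both brighter H4 genes. The log2 ratios were -0.52 for H4C11 and -0.81 for H4C5, the second within the 0.94 SD between probe sets of its brightness.

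A narrower look at genes with a DMSO signal of at least 500, a limit chosen after the values were seen, left H2BC12, H2BC5, H2AC6, H1-2 and H2BC12L. T-3764518-treated cells had the higher signal in all 5, against both DMSO (42.5% of all genes this bright) and SCD1-KO cells (48.8%). Their median log2 ratio to DMSO was 0.21 with the inhibitor and -0.57 in SCD1-KO cells, where 4 of 5 were below DMSO (52.9%) and H1-2 above. The opposite pattern, T-3764518 above and SCD1-KO below DMSO, was seen in 4 of 5 of these genes, in 6 of 17 brighter histone genes, in 15.4% of all genes this bright and in 13.9% of all brighter genes. The promoters of 3 of these H2A and H2B genes, printed above, differed in the octamer: H2BC12 and H2AC6 hold it and H2BC5 does not within the stretch shown. As the limit followed the values, the counts over the 5 genes are description only and cannot be weighed against the shares. Without the _s_at and _x_at probe sets 2 of the 5 remained, H2BC12 and H1-2. Both were above DMSO and SCD1-KO with T-3764518, and 1 of 2 was below DMSO in SCD1-KO cells.

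The 20 probe sets that name several genes, all of them clustered histones, were left out of the gene counts and read on their own. They overlap in target with the members, so they are not independent of them. Of the 20, 13 were brighter by the same limit. Their median log2 ratio to DMSO was 0.42 with the inhibitor and -0.10 in SCD1-KO cells, and the signal was higher in T-3764518-treated than in SCD1-KO cells in 12 of 13, against 45.5% of all brighter probe sets, with a median log2 ratio of 0.30. All 4 for H2A and all 3 for H2B were above DMSO with T-3764518, against 41% of all brighter genes, a share counted by gene. In SCD1-KO cells 3 of the 4 for H2A and 1 of the 3 for H2B were above DMSO, against 5395 of all 11041 brighter genes. Their medians there were 0.06 and -0.37. The brightest H2A one had signals of 1703 in T-3764518-treated, 1090 in SCD1-KO and 1050 in DMSO-treated cells. The brightest of all, annotated to 14 H4 genes, had 5843, 4910 and 7287 in the same order of arrays, lowest in SCD1-KO cells and below DMSO in both conditions. Unlike H4C11 and H4C5, it was higher with T-3764518 than in SCD1-KO cells, by log2 0.25. Of the 3 brighter H4 probe sets of several genes, 2 were higher in that comparison.

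The 27 dimmer histone genes had medians of -0.31 with the inhibitor and -0.18 in SCD1-KO cells, against -0.30 and -0.32 for all dimmer genes, and held most of the large ratios. At least 2-fold differences in either ratio were seen in 21 of 27, against 64.7% of all dimmer genes, and 15 of those 21 genes had every signal below 56.6. The largest were those of H3C8, an H3 gene read by an _x_at probe set, with signals of 130 in T-3764518-treated, 117 in SCD1-KO and 6.70 in DMSO-treated cells. Against 56.6 this was at least 2.30-fold higher for T-3764518 and, for SCD1-KO cells, at least 2.07-fold higher, the only dimmer gene past 2-fold in either ratio once dim signals were raised to that level. These bounds leave out the error of the other signals, and probe sets of that mean brightness differed with SDs of 0.89 and 0.95. The 5 genes with the next largest ratios stayed below 56.6 on all arrays, so no fold is given. The linker histone gene H1-5 had 1.10, 6.05 and 11.6 in the T-3764518, SCD1-KO and DMSO arrays. H2BC3 had 30.9, 3.12 and 3.10, and H2BC11 had 30.1, 3.74 and 3.10 in the same order. H2AC4 had 6.90, 9.78 and 53.1, and H3C3 had 4.80, 24.8 and 28.1. Signals this dim differed between probe sets of a gene by SDs of 1.71 to 2.15 on the log2 scale, and 18 of 27 dimmer genes were below 56.6 on every array. Both pseudogenes taken in by the symbol rule, H2AC5P and H4C10P, were among the dimmer genes.

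Genes outside the clusters but tied to histone supply are given for comparison, as counts over the brighter members of lists that were chosen with earlier results of these data known. Their log2 ratios to DMSO are medians over a gene's probe sets. Among all brighter genes, 2.55% were 2-fold higher, 3.69% 2-fold lower and 59% below DMSO with T-3764518, against which the counts with T-3764518 are to be read, and in SCD1-KO cells 3.52%, 4.11% and 51.1%. Of 9 brighter variant histone genes, which are transcribed outside S phase too and mostly carry poly(A) tails, 0 were 2-fold changed with T-3764518 and 1 was 2-fold lower in SCD1-KO cells, H2AX (-0.32 with the inhibitor and -1.03 in SCD1-KO cells), a core variant of the DNA damage response. Their medians were -0.32 and -0.15. Of 21 genes for histone gene transcription and 3′ end formation, 2 were 2-fold lower with T-3764518, CCNE2 (-2.06, and -0.37 in SCD1-KO cells), a cyclin that activates CDK2, and CASP8AP2 (-1.86 and 0.14), a component of histone locus bodies. In SCD1-KO cells 2 others were 2-fold lower, CCNE1 (-1.24, and 0.18 with T-3764518) and LSM11 (-1.18 and -0.64), a part of the U7 particle that cuts histone transcripts. SLBP had log2 ratios of -0.50 with the inhibitor and 0.12 in SCD1-KO cells, and NPAT, the histone locus coactivator, -0.27 and 0.56. No gene of this list was 2-fold higher in either condition. With each gene's brightest probe set only the CCNE2 call remained, since CASP8AP2 had -0.31 with T-3764518 and CCNE1 and LSM11 had -0.30 and -0.68 in SCD1-KO cells. The T-3764518 signal of CASP8AP2 over its probe sets, 40.1, was below 56.6.

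Of 19 brighter histone chaperone and deposition genes, 4 were 2-fold lower with T-3764518: ASF1B (-1.13), CHAF1B (-1.11), NASP (-1.05) and HIRA (-1.02), whose SCD1-KO ratios were -0.81, -0.41, -0.56 and -0.19. None reached 2-fold in SCD1-KO cells. With the brightest probe set NASP had -0.52 and HIRA -0.42 with T-3764518, so 2 of these 4 calls ended. The same choice made ASF1A 2-fold higher in SCD1-KO cells (1.02, against 0.85 over its probe sets). With T-3764518 its ratios were 0.81 and 0.70. The S phase list, with SLBP also among its genes, was the lowest. With T-3764518, 22 of 23 were below DMSO and 9 were 2-fold lower, with a median log2 ratio of -0.92, and in SCD1-KO cells 19 of 23 were below DMSO, 1 was 2-fold lower (PRIM1, a primase subunit, -1.01) and the median was -0.34. Its lowest ratios with T-3764518 were those of the S phase transcription factor E2F1 (-1.98, and -0.74 in SCD1-KO cells), the helicase subunits MCM2 (-1.71 and -0.92) and MCM4 (-1.54 and -0.63), and GINS2 (-1.46 and -0.10). With the brightest probe set 7 of the 9 calls remained, and E2F1 had -0.96. The T-3764518 signal of E2F1 over its probe sets, 41.0, was below 56.6. The cell cycle arrest list also holds genes that are not arrest genes, the D cyclins CCND1 and CCND3 and the p53 inhibitor MDM2. Of its 12 brighter genes, 3 were 2-fold higher in each condition, and the medians were 0.39 and 0.53. With T-3764518 these were the CDK inhibitor CDKN2B (3.47, and 2.71 in SCD1-KO cells), BTG1 (1.22 and 0.61) and GADD45A (1.09 and 0.89), and in SCD1-KO cells CDKN2B, the CDK inhibitor CDKN1A (1.19, and 0.88 with T-3764518) and MDM2 (1.03 and 0.40). The DMSO signal of CDKN2B, 24.1, was below 56.6, and with its brightest probe set MDM2 had 0.75 in SCD1-KO cells. The medians of the arrest list were 0.12 in both conditions without the _s_at and _x_at probe sets, and 0.20 and 0.30 with dim signals raised to 56.6. Scaling to 1 median turned the medians of the transcription and chaperone lists positive in both conditions (0.01 and 0.06, and 0.04 and 0.04), but left those of the S phase list at -0.64 and -0.20. The brighter clustered histone genes thus had a median above DMSO with T-3764518 on the array where the S phase list had its lowest median, under each scaling run; whether cell cycle position had a part in the histone signals was not tested.

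**Figure D4:**
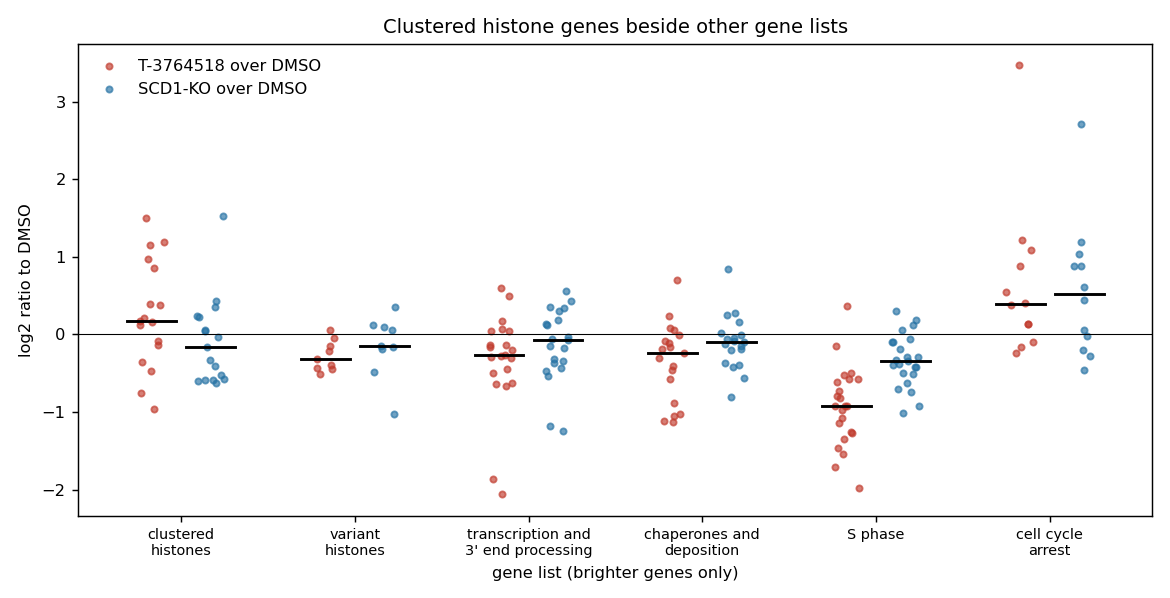
Log2 ratio to DMSO (vertical axis) of the brighter genes of 6 gene lists with T-3764518 (red) and in SCD1-KO cells (blue), 1 point per gene and a bar at the median. The S phase genes have medians of -0.92 and -0.34, while the 17 clustered histone genes have 0.17 and -0.16.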

How the data were processed

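Total RNA (250 ng) from each of the 3 samples was labelled from oligo(dT) and hybridised to an Affymetrix human 3′ expression array. Per the labels, the deposited values are linear MAS5 signals, an intensity for each of 54675 probe sets; the MAS5 version and the scaling step are not given in the sources used here, although every array had a trimmed mean of 500.1. More decimals were kept for SCD1-KO signals than for the others. No detection calls or scanner files were used here.

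Probe sets were paired with genes through the platform annotation: 41091 name 1 gene, 1801 name several and 11777 none. Of those naming 1 gene, 41037 were matched to RefSeq (GRCh38.p14) by gene ID. Log2 ratios were formed per probe set, and a gene took the median of its probe sets; where a gene of several probe sets is given 1 signal, it is the geometric mean. With 1 array per condition no test was run, and a call means at least 2-fold. A bound replaces a signal below 56.6, the median of all probe sets, with that value. The number of arrays limits the precision.

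The histone genes were taken by a symbol rule, and that rule and the other lists were chosen with earlier results of these data known. Every brighter histone gene is named, with the 6 dimmer ones of largest ratio, up to 4 genes of each other list past 2-fold (largest ratios first), and SLBP, NPAT and CASP8AP2. ASF1A is named for a call that only its brightest probe set gave. Promoters came from RefSeq's table, 250 bases before each start. Alternatives tried were lowess correction, scaling to 1 median, quantile normalization, filters on dim probe sets, an offset, other fold thresholds, other summaries of a gene's probe sets, and leaving out the _s_at and _x_at probe sets; the T-3764518 to SCD1-KO ratio and leaving out both pseudogenes and H2BC12L were added after seeing the data. The calculation was tested on simulated data. Calculations used pandas 2.3.3 and numpy 2.4.6 under Python 3.11.15, lowess came from statsmodels 0.14.6 and figures from matplotlib 3.10.9.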

Additional observations from a re-analysis of the deposited data

How the results depend on the processing

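Counts of 2-fold calls among the histone genes depended on the dim signals. With T-3764518 the 9 higher genes became 2 over probe sets at or above percentile 50, 0 at or above percentile 75, 5 with an offset of 16.5, 2 with dim signals raised to the median, 14 at a 1.5-fold and 4 at a 3-fold threshold, and the 9 lower genes became 0, 0, 3 and 0 under the same filters, offset and floor and 5 at 3-fold. In SCD1-KO cells the 7 higher genes became 1, 0, 4 and 1 under those settings and 4 at 3-fold, and the 5 lower genes became 0, 0, 2 and 0, 10 at 1.5-fold, 3 at 3-fold and 3 with each of quantile normalization, scaling to 1 median and lowess correction. The median log2 ratio of all histone genes with T-3764518 (0.10) was 0.38 after scaling to 1 median, and that of the brighter genes (0.17) was 0.45. It was -0.02 over all histone genes without the _s_at and _x_at probe sets. In SCD1-KO cells the median of all histone genes (-0.17) was 0.0057 with quantile normalization, 0.013 with lowess correction, -0.33 and -0.53 at percentiles 50 and 75, and 0 with dim signals raised. That of the brighter genes (-0.16) was -0.017 after scaling to 1 median, -0.33 and -0.53 at percentiles 50 and 75, -0.26 with dim signals raised and -0.33 with each gene's brightest probe set. The T-3764518 to SCD1-KO median of the brighter genes (0.54) was 0.68 after scaling to 1 median and between 0.45 and 0.56 under every other alternative except percentile 75, where it was 0.62 over 7 genes. The filters leave fewer genes; other causes were not tested. No paired analysis was possible because each condition had 1 array.

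With 1 array per condition, differences between cultures were not measured, and no result here has a replicate check. Dim signals limit 27 of 44 genes, and 8 of 17 brighter genes rest on _s_at or _x_at probe sets only. The labelling leaves out most stem-loop mRNA. The SCD1-KO cells are a line derived through transfection and selection.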
